A study of Mus musculus with 3 samples.

Results

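The enzymes that modify foreign chemicals, aldehydes, sterols and retinoids were examined in mouse embryonic stem (ES) cells. Members were defined by gene symbol, with earlier results of these data known. They were cytochrome P450s (Cyp, without the cholesterol synthesis gene Cyp51), aldehyde dehydrogenases (Aldh), glutathione transferases (Gst and Mgst), aldo-keto reductases (Akr) and UDP-glycosyltransferases (Ugt). Ahr, Ahrr, Arnt and Nqo1 were added to these. This gave 86 of the 15311 genes in the table. Of these 86, 58 were classed as active and 8 as bivalent (promoters with both an activating and a Polycomb mark), by a class code that the table takes from an earlier study, and 20 had another code or none.

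Polyadenylated RNA was sequenced from 1 library of K3R3 cells and 2 libraries of wild-type (WT) cells. K3R3 cells made a form of the histone variant H2A.Z in which 3 lysines near its C terminus were exchanged for arginine, and WT cells made unmutated H2A.Z. In both, H2A.Z was fused to yellow fluorescent protein (YFP) and expressed by lentivirus from a CMV promoter under an rtTA switch, with 1 µg/ml doxycycline as inducer. Both kinds of line were made in KH2 ES cells, labelled as strain V6.5 (129SvJaexC57BL/6), were sorted for YFP, and carried a hairpin with blasticidin selection against the 3′ untranslated region of endogenous H2A.Z. The labels list more than 1 hairpin and do not say which of them these libraries carried. Nor do they tell whether separate cultures gave the WT libraries, so the scatter behind every p-value comes from these libraries alone and could be technical. For edgeR it was pooled over genes of like level and is not the scatter of each gene. The series title links H2A.Z.1 mono-ubiquitylation and BRD2 to poised chromatin, and the comparison here is K3R3 over WT.

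The table held 24718223 counts for K3R3, against 21614693 and 25426228 for WT replicates 1 and 2. H2afz, the targeted gene, stood at 222 CPM (counts scaled to library size) in K3R3 and at 219 and 232 CPM in WT, where transgene and endogenous reads are counted together. All 10 listed pluripotency markers were in the table and summed to 4271 CPM in K3R3, against 6388 and 5362 CPM in WT. Of these 10, 7 lay below both WT libraries and 1 above both, with a median log2 change of -0.36. Pou5f1 stood at 311 CPM in K3R3 and at 500.5 and 299.6 CPM in WT. By edgeR, 3 of the 10 were called lower in K3R3 (Klf4, Sox2 and Dppa5a), against 1 with the library totals implied by RPKM. DESeq2 called 0 of these 3. Of the markers of other cells, 26 fibroblast genes were listed, and 1 of the 23 in the table was called higher and 0 lower. Their summed level was 1515 CPM in K3R3, against 2067 and 1880 CPM in WT. Much of that sum was Fn1, at 864 CPM in K3R3, against 1229 and 1197 CPM in WT. By gene, 12 stood above both WT libraries and 4 below both, with a median log2 change of 0.17. Visceral and primitive endoderm markers summed to 538 CPM in K3R3, against 898 and 728 CPM in WT, with 0 of 14 called higher and 4 lower (3 with the implied totals). Only 8 of 18 hepatocyte markers could be analysed, 6 of them tested with 0 called, and together they made up 19.0 CPM in K3R3 and 16.03 and 15.99 CPM in WT. Neural ectoderm markers summed to 214 CPM in K3R3, against 190 and 211 CPM in WT, with 1 of 10 called higher and 1 lower. The higher one, Zic1, had 36 counts in K3R3, against 4 and 1 in WT, passed the low-count filter through K3R3 alone and was not called by DESeq2 (adjusted p = 0.808). The lower one, Otx2, had 141 counts in K3R3, against 490 and 403 in WT (log2 -1.87, SE 0.37), and DESeq2 also called it. In bulk RNA, fewer cells of a type and less RNA per cell cannot be told apart.

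P450s add oxygen to lipophilic substrates, and the products are oxidised further by aldehyde dehydrogenases, reduced by aldo-keto reductases or coupled to glutathione or sugars by the transferases. Many genes of these families are induced by the aryl hydrocarbon receptor (AHR), which binds DNA with its partner ARNT and is held back by the repressor AHRR. Other members act on signals that guide early embryos, chief among them retinoic acid, which ALDH1A enzymes make and CYP26 enzymes destroy.

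Few of these genes were called in K3R3, though with 1 library a missing call does not show that a gene was unchanged. The edgeR quasi-likelihood test was run over every gene averaging 0.5 CPM or more (Benjamini-Hochberg adjusted p under 0.05). It took in 75 of the 86 members, of which 2 were higher and 1 lower. The higher ones were Ahrr and Gstm5, and the lower one was Cyp4f14. Over all 13829 tested genes 2.02% were higher and 0.542% lower, so the members' counts were close to the background. At an unadjusted p under 0.05 by edgeR, 11 of the 75 members were higher and 4 lower, where 7.9% and 3.33% of all tested genes were. K3R3 stood above both WT libraries for 34 of the 75 (45.3%) and below both for 19 (25.3%), beside 33.9% and 34.2% of all tested genes. DESeq2 called 0 members in either direction, with 7 at an unadjusted p under 0.05 and a smallest adjusted p of 0.0652, and over all genes it called 0.239% higher and 0.188% lower. The adjusted p of DESeq2 was above 0.05 for each gene that edgeR called, Ahrr (0.363), Gstm5 (0.0851) and Cyp4f14 (0.0652).

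The short sequences that hold the core of the AHR response element (GCGTG) near the starts of the called genes, and of Cyp1b1, a well-known AHR target, are shown because the genes are set beside each other below. They come from RefSeq (build GRCm38.p6), in windows from 250 bases before to 50 after each transcript start, and 68 of the 86 members had such a window. Each line reads 5′ to 3′ on the gene's own strand, with the match in capitals. CACGC is GCGTG read on the opposite strand, and distances are from the transcript start to the first base of the match.
Ahrr, chr13:74292421-74292450, minus strand, match at -107: tattgaaagggcGCGTGgcaggcagggaca
Ahrr, chr13:74292396-74292425, minus strand, match at -82: ggacaaggatgtGCGTGcgccctctgccgc
Ahrr, chr13:74292341-74292370, minus strand, match at -27: gcggggcggctcGCGTGctggggtggggct
Gstm5, chr3:107895671-107895700, plus strand, match at -171: tgcaacatgactCACGCttcccgggtaact
Gstm5, chr3:107895804-107895833, plus strand, match at -38: ccgcccactgacCACGCggagggcgggtgg
Cyp4f14, chr17:32917576-32917605, minus strand, match at -237: tacttagtgtacCACGCccttggaggagca
Cyp1b1, chr17:79715120-79715149, minus strand, match at -76: cgtcccgcccctCACGCcccaccccctaag

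GCGTG, searched on both strands, was found in 32.4% of all 32851 windows, and by gene in 36.8% of the 68 members and in 54.4% of the 10674 genes of the table that had a window. The core of the antioxidant response element, TGACNNNGC, was found in 14.7% of the members and 16.9% of those table genes. In Gstm5 a TGACNNNGC match begins at -42 and overlaps the GCGTG match at -38: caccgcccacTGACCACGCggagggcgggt (chr3:107895802-107895831, plus strand). The windows of Cyp4f14, which has 4 annotated starts, held 1 TGACNNNGC match, and that of Nqo1 held neither motif. These matches describe letters only and not binding.

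Ahrr had the largest rise among the members that passed the low-count filter. It had 70 counts in K3R3 and 6 in each WT library, or 2.69 CPM in K3R3, against 0.285 and 0.242 CPM in WT. The K3R3 value lay far above both WT values, which were close to each other. The fitted log2 change was 3.33 (SE 0.80; edgeR adjusted p = 0.00323), and the ratio of K3R3 to the pooled WT counts was 10.3, with an exact 95% interval of 5.53 to 20.8 that covers counting error only. Ahrr passed the low-count filter through its K3R3 value alone, so it could be tested only because it was high there. It is classed as bivalent.

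The receptor and its partner differed less. Ahr stood at 22.3 CPM in K3R3, against 17.8 and 19.2 CPM in WT (log2 0.27, SE 0.31), above both WT libraries and not called. Arnt, the shared partner of AHR and other PAS-domain factors, stood at 153 CPM in K3R3, against 198 and 220 CPM in WT. Its log2 change of -0.45 (SE 0.20) had an unadjusted p of 0.0277 and was not called by edgeR (adjusted p = 0.326). Nqo1, a quinone reductase induced through AHR and NRF2, stood at 55.8 CPM in K3R3, against 67.8 and 60.9 CPM in WT (log2 -0.20, SE 0.24).

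AHR target genes did not follow a single direction. Cyp1b1, which hydroxylates oestrogens and polycyclic hydrocarbons, had 11.4 CPM in K3R3, against 22.1 and 11.1 CPM in WT. The K3R3 value lay between the WT values, which were as far from each other as K3R3 was from the higher of them. Aldh3a1, which clears aldehydes from lipid peroxidation, had 1.04 CPM in K3R3 and 2.05 and 1.09 CPM in WT. The receptor's partners and targets, Tiparp among them, were looked at as a list of 18 tested genes, 8 of whose 19 genes in the table are also members. In this list Ahrr was the single call, the median log2 change was -0.09 with 7 of 18 above 0, and scaling to the totals that the RPKM values imply turned the median to 0.07. The largest values beside Ahrr were those of Serpinb2 (-1.93) and Lpcat2 (1.19), neither called, leaving aside Ugt1a6b, whose reads cannot be assigned with certainty because 79.8% of its 50-base words occur in another gene. Of 27 NRF2 target genes 0 were called, and their log2 changes ran from -0.37 (Gpx2) to 0.45 (Me1).

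**Figure D1:**
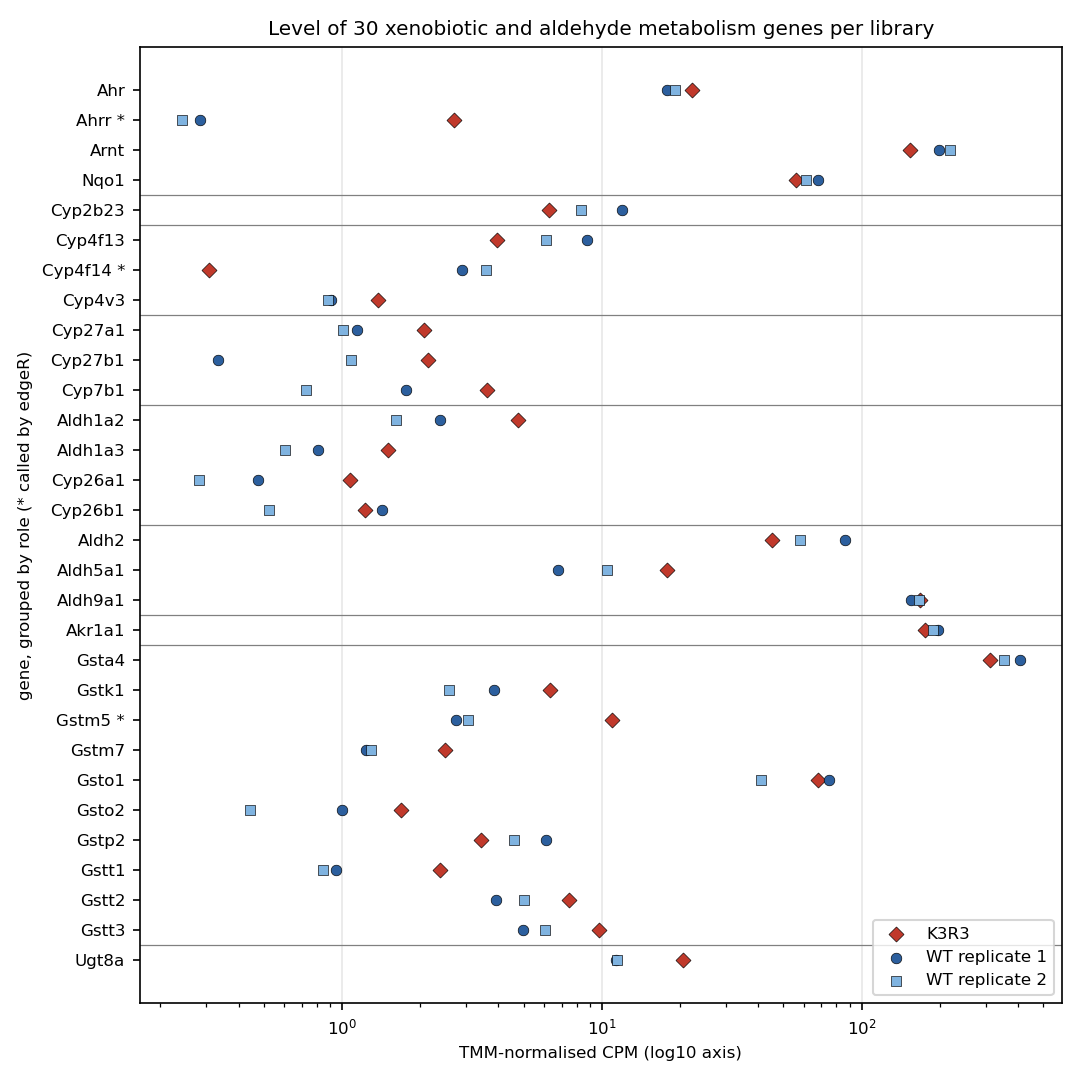
TMM-normalised CPM (log10 axis) of the 30 members named by rule, grouped by role, with K3R3 as red diamonds and the WT replicates as blue circles and squares. The 3 called genes, marked by an asterisk, show K3R3 far from both WT points, as for Ahrr at 2.69 CPM in K3R3 and 0.285 and 0.242 CPM in WT.

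Cyp4f14 was the single member called lower. This omega-hydroxylase of fatty acids and leukotrienes had 8 counts in K3R3, against 61 and 89 in WT, which is 0.307 CPM in K3R3 and 2.90 and 3.59 CPM in WT. Its log2 change was -3.38 (SE 0.77; edgeR adjusted p = 0.00159), and the count ratio of K3R3 to WT was 0.0939, with a counting interval of 0.0398 to 0.190. Endoderm markers were also lower in the K3R3 library (538 CPM, against 898 and 728 CPM in WT), and their part in this result was not tested.

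The neighbours of Cyp4f14 in the Cyp4f cluster did not share a fall of that size. Cyp4f13 was next, with 3.96 CPM in K3R3, against 8.80 and 6.08 CPM in WT (log2 -0.91, SE 0.43). Its unadjusted p was 0.0362 and edgeR did not call it (adjusted p = 0.377). Cyp4f16, Cyp4f17 and Cyp4f39 had log2 changes of -0.25, 0.01 and -0.04, and the pseudogene Cyp4f41-ps, with 10 counts in K3R3 and 1 and 12 in WT, was too low to test. Reads could be split between some of these copies. In GENCODE M21 transcripts, 17.4% of the 50-base words of Cyp4f16 also occur in another gene, whereas under 5% of those of Cyp4f14 and Cyp4f13 do. Cyp4v3, a family member on another chromosome, stood at 1.38 CPM in K3R3, against 0.904 and 0.886 CPM in WT (log2 0.62).

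P450s of families 1 to 3, the main drug-metabolising families of liver, were low. Of 13 members 9 were tested and 0 called. The highest apart from Cyp1b1 was Cyp2b23, at 6.26 CPM in K3R3, against 11.9 and 8.34 CPM in WT (log2 -0.69, SE 0.39; edgeR adjusted p = 0.552). Cyp2j13, of a family that makes epoxides of arachidonic acid, had 34 counts in K3R3, against 9 and 6 in WT. Its log2 change of 1.96 (SE 0.89) had an unadjusted p of 0.0273 and was not called. It reached the filter through K3R3 alone, and its neighbours Cyp2j6 (-0.09) and Cyp2j9 (10 counts in K3R3, 7 in each WT library) did not stand apart.

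All 6 tested P450s of sterols, steroids and vitamin D stood above both WT libraries in K3R3, with 0 called. Of these, 4 averaged under 2 CPM, a level at which 59.5% of all tested genes stood above both. Cyp7b1, which hydroxylates oxysterols on the way to bile acids, had 3.61 CPM in K3R3, against 1.76 and 0.725 CPM in WT (log2 1.55, SE 0.60; edgeR adjusted p = 0.175). Cyp27b1, which makes the active form of vitamin D, had 56 counts in K3R3, against 7 and 27 in WT. On the log2 scale the WT values were farther apart than K3R3 was from the higher of them. The log2 change was 2.55 against replicate 1 alone and 0.96 against replicate 2. Cyp27a1, the sterol hydroxylase of mitochondria, had 2.07 CPM in K3R3, against 1.14 and 1.01 CPM in WT (log2 0.95). Cyp39a1 (0.33), Cyp11a1 (0.68) and Cyp46a1 (1.25), which acts on brain cholesterol, completed the group. Cyp46a1 rested on 25 counts in K3R3, against 2 and 17 in WT.

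Cyp24a1, which inactivates vitamin D and is classed as bivalent, was too low for the test. It had 20 counts in K3R3 and 1 in each WT library, the smallest count that any gene here has. The count ratio was 17.6 (counting interval 4.28 to 155). Cyp24a1 owed its level to K3R3, with 0.768 CPM there, against 0.0476 and 0.0403 CPM in WT. Without the low-count filter its log2 change was 3.98 (SE 1.19), and edgeR called it (adjusted p = 0.0400). Vdr, the receptor whose target it is, stood at 1.77 CPM in K3R3, against 1.24 and 0.886 CPM in WT, and was not called.

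Of the 4 enzymes that make or break retinoic acid, 3 stood above both WT libraries in K3R3 and 0 were called. The share of all tested genes above both was 33.9%, with 59.5% of those under 2 CPM and 72.9% of the bivalent ones. Aldh1a2, which makes retinoic acid in the early embryo, had 4.76 CPM in K3R3, against 2.38 and 1.61 CPM in WT (log2 1.26, SE 0.51). Its unadjusted p was 0.0145, and edgeR's adjusted p was 0.225. Aldh1a3, a second such enzyme, had 39 counts in K3R3, against 17 and 15 in WT (log2 1.08, SE 0.79). Cyp26a1, which degrades retinoic acid and is itself a retinoic acid target, had 28 counts in K3R3, against 10 and 7 in WT (log2 1.51, SE 0.91), and passed the filter through K3R3 alone. Cyp26b1 had 1.23 CPM in K3R3, between the WT values of 1.43 and 0.524 CPM, and its log2 change was 0.35 with both WT libraries and -0.21 against replicate 1 alone. Aldh1a2, Aldh1a3 and Cyp26a1 are bivalent in class.

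Other genes that handle or respond to retinoic acid include 4 called higher, and 0 called lower, among 20 tested that are not members. Over all tested genes 2.02% were called higher, and 175 of 1671 tested bivalent genes were. With the 4 enzymes the list had 24 tested genes, 11 of them bivalent, a median log2 change of 0.68 with 20 of 24 above 0, and 70.8% above both WT libraries, beside 33.9% of all tested genes and 72.9% of the bivalent ones. Crabp1, a retinoic acid binding protein of the cytosol, had 319 counts in K3R3, against 62 and 97 in WT (log2 1.83, SE 0.40; edgeR adjusted p = 0.000711). Rbp4, the retinol carrier of serum, had 48 counts in K3R3, against 3 and 4 in WT (log2 3.55), and Rxrg, a retinoid X receptor, had 52 counts in K3R3, against 4 and 6 in WT (log2 3.17); both passed the filter through K3R3 alone. Stra8 was the fourth (log2 1.60). DESeq2 called Stra8 alone of these 4. The part of the marker differences above in these values was not tested. All bivalent genes had a median of 0.65. All active genes, the class of the other 13 in the list, had a median of -0.04 with 27.8% above both WT libraries. The part of promoter class in the list's value was not tested.

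**Figure D2:**
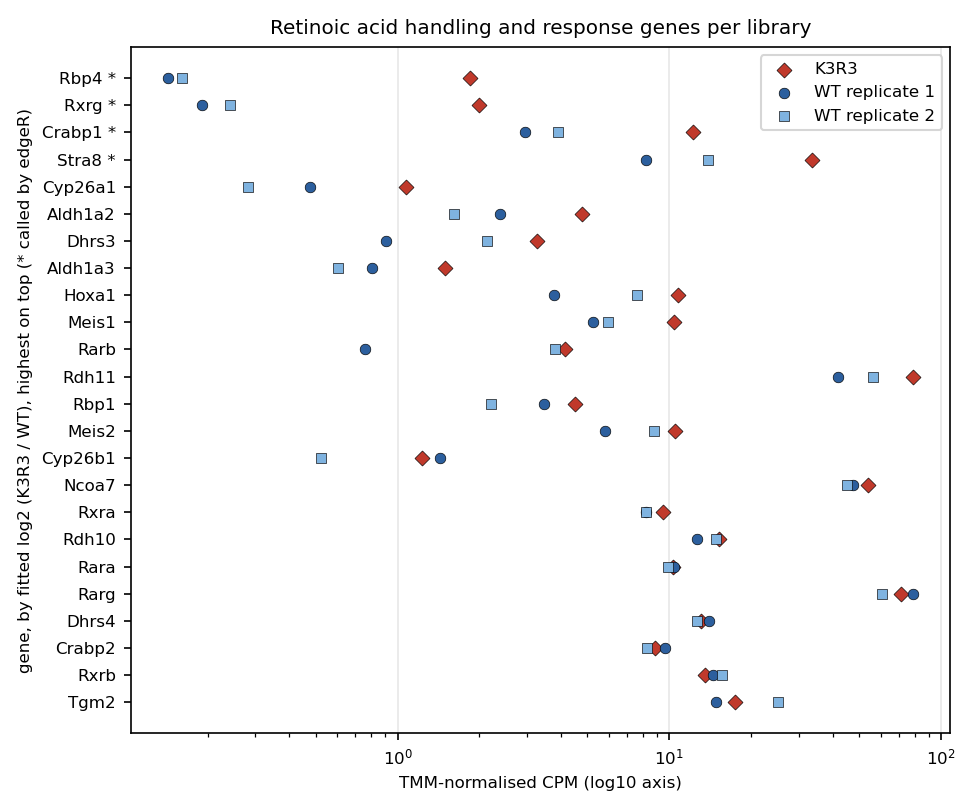
TMM-normalised CPM (log10 axis) of the 24 tested genes of retinoic acid handling and response, ordered by fitted log2 (K3R3 over WT), with K3R3 as red diamonds and WT replicates as blue circles and squares. The 4 called genes at the top lie clear of both WT points, and Aldh1a2, at 4.76 CPM in K3R3 and 2.38 and 1.61 CPM in WT, lies above both without a call.

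Among the other aldehyde dehydrogenases, 0 of 14 tested were called, and they were spread around 0 (median -0.08, turning to 0.04 with the implied totals). Aldh5a1, which completes the breakdown of the transmitter GABA, came closest. It had 466 counts in K3R3, against 143 and 260 in WT, or 17.9 CPM in K3R3, against 6.80 and 10.5 CPM in WT. The log2 change was 1.05 (SE 0.34) with an edgeR adjusted p of 0.0701, and with the implied totals it was 1.17 and called (adjusted p = 0.0235). It is classed as bivalent, and 14.1% of its exonic bases lie opposite the antisense gene 4932702P03Rik, so with the strand setting of the counting not given, reads of the pair cannot be told apart. Aldh2, the mitochondrial enzyme that clears acetaldehyde, stood at 45.1 CPM in K3R3, against 86.3 and 57.8 CPM in WT (log2 -0.67, SE 0.25; edgeR adjusted p = 0.130). It lay below both WT libraries, which differed from each other by more than K3R3 did from replicate 2. Aldh4a1 (-0.57) and Aldh6a1 (-0.45), of proline and valine breakdown, also lay below both, though 30.0% of the 50-base words of Aldh4a1 occur in another gene. Aldh3a2 (0.25), the fatty aldehyde dehydrogenase, and Aldh1l2 (0.46), of the mitochondrial folate cycle, lay above both. Aldh18a1 (0.03), of proline synthesis, lay between the WT libraries. The doubt about strand also holds for Aldh6a1 and Aldh1l2. Of their exonic bases, 18.6% lie opposite Bbof1 and 14.1% opposite D10Wsu102e, in that order.

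Glutathione transferases held the second member called higher. Gstm5, a transferase of the mu class, had 285 counts in K3R3, against 58 and 76 in WT, which is 10.9 CPM in K3R3 and 2.76 and 3.06 CPM in WT. The log2 change was 1.91 (SE 0.41; edgeR adjusted p = 0.000679), with 1.97 and 1.82 against each WT replicate alone, and the count ratio was 3.75 (counting interval 3.04 to 4.63). Gstm5 is classed as active. It overlaps the gene 4933431E20Rik on the opposite strand over 13.9% of its exonic bases. That gene had 82 counts in K3R3, against 16 and 18 in WT (log2 2.08, SE 0.67; edgeR adjusted p = 0.0618). Because the strand setting of the counting was not given, reads of the pair cannot be told apart where they overlap.

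The other mu-class genes lie beside Gstm5 and did not stand out in the same way. Gstm7 was next, with 2.50 CPM in K3R3, against 1.24 and 1.29 CPM in WT (log2 0.98, SE 0.65), followed by Gstm6 (0.61), Gstm4 (0.32), Gstm1 (0.13), Gstm3 (-0.34) and Gstm2 (-0.45), none called. Of these, Gstm3 and Gstm1 share 28.8% and 18.9% of their 50-base words with other genes, so their counts are uncertain, whereas Gstm5 shares under 5%. The theta-class cluster showed another picture: each of its 3 genes stood above both WT libraries. So did 59.5% of all tested genes under 2 CPM and 52.6% of those at 2 to 10 CPM. Gstt1 had 62 counts in K3R3, against 20 and 21 in WT (log2 1.40, SE 0.69; unadjusted p = 0.0416 by edgeR). Gstt3 had 9.80 CPM in K3R3, against 5.00 and 6.04 CPM in WT (log2 0.83; unadjusted p = 0.0350 by edgeR). Gstt2 had 7.45 CPM in K3R3, against 3.90 and 5.04 CPM in WT (log2 0.73). Of the 50-base words of Gstt3, 12.5% occur in another gene. None of the 3 was called after adjustment.

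**Figure D3:**
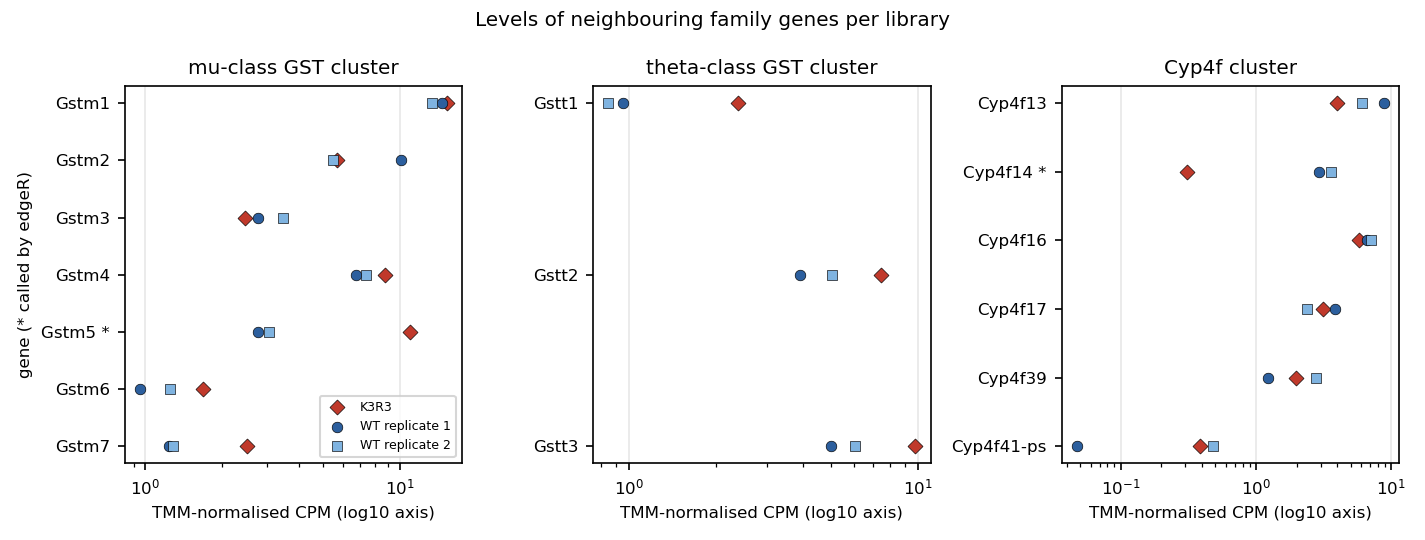
TMM-normalised CPM (log10 axis) of neighbouring genes in the mu-class and theta-class glutathione transferase clusters and the Cyp4f cluster, with K3R3 as red diamonds and the WT replicates as blue circles and squares. Gstm5 (10.9 CPM in K3R3, 2.76 and 3.06 CPM in WT) and Cyp4f14 (0.307 CPM in K3R3, 2.90 and 3.59 CPM in WT) stand apart from their neighbours.

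Of the remaining glutathione transferases, Gstk1, found in mitochondria and peroxisomes, had 6.30 CPM in K3R3, against 3.85 and 2.58 CPM in WT (log2 0.97, SE 0.45; unadjusted p = 0.0314 by edgeR, not called). Gsto2, of the omega class, had 44 counts in K3R3, against 21 and 11 in WT (log2 1.24), while its neighbour Gsto1 lay between the WT values at 67.8 CPM in K3R3, against 74.6 and 41.1 CPM in WT. Gstp2 had 3.42 CPM in K3R3, against 6.09 and 4.59 CPM in WT (log2 -0.64), but 54.3% of its 50-base words also occur elsewhere, Gstp1 first. The microsomal Mgst1, Mgst2 and Mgst3 had log2 changes of 0.56, 0.17 and -0.12. Over the 18 cytosolic and mitochondrial transferases, 1 was called higher and 0 lower, with a median of 0.27. Of these 18, 10 (55.6%) stood above both WT libraries, beside 33.9% of all tested genes. That share of all tested genes was 59.5% under 2 CPM, 52.6% at 2 to 10 CPM and 20.5% at 10 CPM or more.

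Sugar transferases gave no call. Ugt8a, which builds galactosylceramide for myelin, had 20.6 CPM in K3R3, against 11.3 and 11.5 CPM in WT. The WT values nearly coincided and K3R3 lay above both (log2 0.85, SE 0.33), with an unadjusted p of 0.00980 and an edgeR adjusted p of 0.177. The Ugt1a genes share their last exons, and between 52.1% and 79.8% of the 50-base words of Ugt1a6a, Ugt1a6b and Ugt1a7c occur in another gene, so their counts were not interpreted. The tested aldo-keto reductases spanned a narrow range. The log2 changes of these 7 ran from -0.13 to 0.31, with 0 called. Others were too low to test and spread more widely. Akr1c12 had 3 counts in K3R3, against 20 and 10 in WT (log2 -2.49 without the filter). Akr1c18 had 3 counts in K3R3, against 20 and 2 in WT (-2.08), and Akr1b7 had 9, against 6 and 2 (0.94). Akr1b8, at 11.8 CPM in K3R3, against 13.8 and 5.32 CPM in WT, had a larger difference between the WT libraries than between K3R3 and replicate 1.

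None of the abundant members was called. Per length, Gsta4, which conjugates products of lipid peroxidation, was the highest at 229 RPKM in K3R3, against 274 and 240 RPKM in WT. Akr1a1, the general aldehyde reductase, followed with 87.8 RPKM in K3R3, against 89.5 and 87.0 RPKM in WT. The next were Aldh9a1, of carnitine synthesis (41.7 RPKM in K3R3, 35.1 and 38.3 RPKM in WT), Gsto1 (41.3 RPKM in K3R3, 41.4 and 23.1 RPKM in WT) and Arnt (24.8 RPKM in K3R3, 29.1 and 32.8 RPKM in WT). Gsta4 stood clear of Akr1a1 in every library, whereas Aldh9a1 and Gsto1 changed places between libraries. On the CPM scale, the log2 changes of these 5 were -0.29, -0.13, 0.06, 0.23 and -0.45 in that order, none called. In all, 12 members had a mean of at least 10 RPKM, and 45 had less than 1. Of these 12, 7 (58.3%) lay below both WT libraries and 2 (16.7%) above both. Among all genes of at least 10 CPM, a different measure of level, 44.7% lay below both and 20.5% above both.

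**Figure D4:**
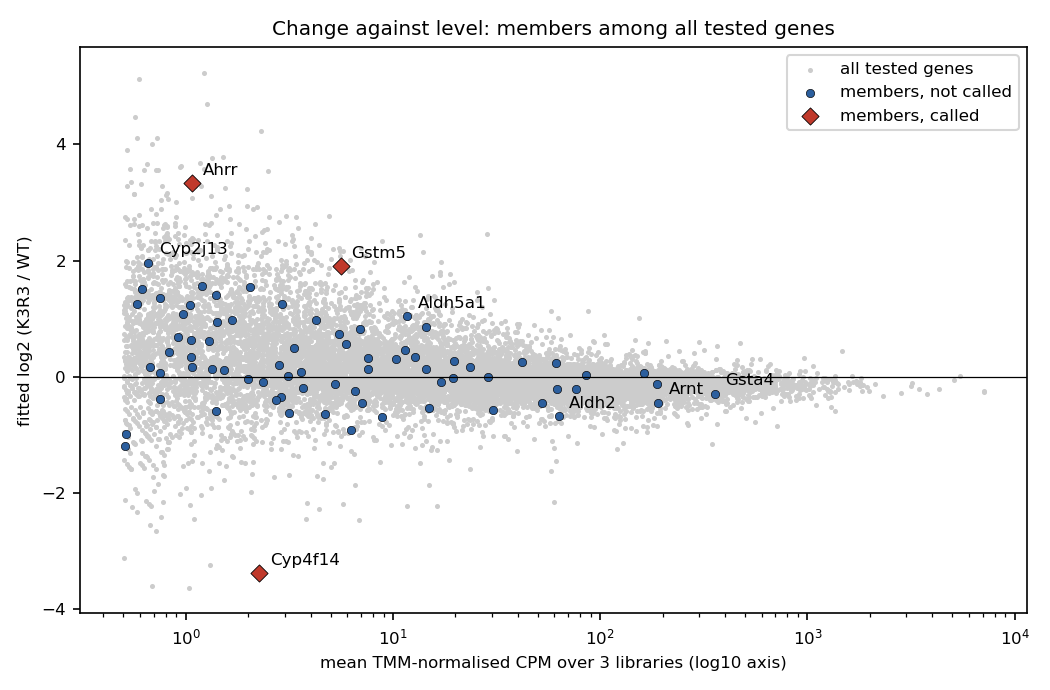
Fitted log2 change (K3R3 over WT) against mean TMM-normalised CPM over 3 libraries (log10 axis) for all tested genes (grey), members not called (blue) and called members (red diamonds). Ahrr and Gstm5 lie above and Cyp4f14 below the blue points of like level, and the 4 members of highest CPM run from -0.45 (Arnt) to 0.06 (Aldh9a1).

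Medians of the members are set here beside those of all genes of like level and class. The 26 tested members under 2 CPM had a median log2 change of 0.62 with 57.7% above both WT libraries, beside 0.50 and 59.5% for all genes at that level. The 25 at 2 to 10 CPM had a median of 0.01 with 40% above both WT libraries, beside 0.20 and 52.6% for all genes there. The 24 of at least 10 CPM had a median of 0.01 with 37.5% above both, beside -0.08 and 20.5% for all genes there. The 7 tested bivalent members had a median of 1.25, with 1 called higher, 0 lower and 6 above both WT libraries, beside a median of 0.65 and 72.9% above both for all bivalent genes, of which 175 of 1671 tested were called higher and 9 lower. The 55 tested active members had a median of 0.13, with 45.5% above both WT libraries, beside -0.04 and 27.8% for all active genes. Over all 75 the median was 0.13, against -0.01 for all genes, while the members' median between WT replicates 2 and 1 was -0.16. By size alone, with 1 added to each CPM, 2 members lay at least 2-fold above both WT libraries and 1 below both, of 63 with a mean of at least 1 CPM. They were the 3 genes that edgeR called, and 2.1% and 0.172% of all such genes met this rule. With the implied totals the background of edgeR calls was 467 higher and 50 lower genes, against 280 and 75 with TMM, and the median of all genes moved to 0.11.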

How the data were processed

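The authors deposited whole-number read counts per gene, made with HTSeq 0.5.4p1 on mm9 per the submitters' processing notes; aligner, annotation and strand setting are not given in the sources used here. Genes with a count of 0 in any library are not among its rows (smallest count 1). RPKM values were deposited by the authors and are used for levels between genes. The authors' deposited table also gives, per gene, a fold ratio, a log2 of it and a p-value without adjustment (DESeq 1.10.1 per the submitters' processing notes). That log2 runs WT over K3R3 by the values, opposite to K3R3 over WT in 100% of 1300 genes changed over 2-fold, and 5 members had a deposited p under 0.05 (Gstm5, Cyp4f14, Ahrr, Aldh5a1, Ugt8a).

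Counts were fitted in edgeR 4.0.16 (R 4.3.3) with TMM scaling, over genes averaging 0.5 CPM or more, by glmQLFTest, two-sided, with Benjamini-Hochberg adjustment over all genes; DESeq2 1.42.0 was an alternative. K3R3 has 1 library, so the spread comes from the WT pair (1 residual degree of freedom), and the lone library is assumed to vary alike. The prior degrees of freedom were infinite, so SE and p of edgeR follow the spread over genes of like level. They do not measure how closely the WT values of a single gene lay together. Log2 values against 1 replicate subtract log2 CPM values (prior count 1). The fit was tried on simulated counts with the same spread set for every library. Such counts cannot show whether the lone K3R3 library varies like the WT pair.

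Members and lists were chosen with earlier results of these data known. Named by rule were the AHR genes and Nqo1, called members, the retinoic acid enzymes, the 5 most abundant, and then members by size of change with a mean of at least 1 CPM, up to 30; other members named were chosen after their values were seen. Shared 50-base words and exon overlaps were computed from GENCODE M21. Of 86 symbols, 85 matched RefSeq by symbol and 1 by synonym. The promoter class code was used as deposited. No protein sequence was used here.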

Additional observations from a re-analysis of the deposited data

How the results depend on the processing

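The counts of called members were 2 higher and 1 lower. DESeq2 gave 0 and 0. With a minimum mean of 2 CPM 1 was higher, Ahrr being below that minimum. DESeq2 size factors and the likelihood ratio test left 2 and 1, while the totals implied by RPKM (adding Aldh5a1) and the fit without a low-count filter (adding Cyp24a1) gave 3 and 1. Over all genes, DESeq2 called 33 higher and 26 lower, and the implied totals gave 467 higher. The median over tested members was 0.28 with the implied totals and 0.015 at a minimum of 2 CPM, and ran from 0.11 to 0.22 when either WT replicate was left out. Members 2-fold above WT numbered 4 to 6 against a single WT replicate, and 1 lay below in each case. The cause was not tested. Of the 30 named members, none changed sign under another normalization, filter or test, while Cyp26b1 (-0.21) and Gsto1 (-0.14) did against WT replicate 1 alone. No paired analysis was possible because the K3R3 library carries no replicate number. Depth limits genes such as Cyp24a1 and Cyp46a1, with 1 or 2 counts in a WT library, and intervals cover counting error only. A lone K3R3 library leaves no spread of its own, so a difference of that library and of the K3R3 form cannot be told apart.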

Other observations

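Genes that work with these enzymes were for the most part not called. A list of P450 redox partners and related genes had 14 tested, among them the electron donor Por and the heme oxygenase Hmox1, not itself a partner. Of these 14, 0 were called by edgeR, and their log2 changes ran from -0.30 (Cyb5r3) to 0.21 (Hmox1). The 8 xenobiotic and lipid nuclear receptors also had 0 calls, the largest change being that of Hnf4a, a factor of liver and endoderm, with 5 counts in K3R3, against 27 and 13 in WT (log2 -2.19, SE 1.09). Of 25 other conjugating and hydrolysing enzymes, 0 were called higher and 1 lower. This was Ephx2, the soluble epoxide hydrolase that opens fatty acid epoxides made by P450s, with 20.7 CPM in K3R3, against 40.7 and 45.9 CPM in WT (log2 -1.06, SE 0.29; edgeR adjusted p = 0.0182, DESeq2 adjusted p = 0.0592). Among 10 transporters 1 was called higher, Slco3a1, an organic anion carrier classed as bivalent. Slco3a1 had 7.87 CPM in K3R3, against 3.33 and 2.22 CPM in WT (log2 1.51, SE 0.44, edgeR adjusted p = 0.0314, DESeq2 adjusted p = 0.545). Abcc3, an efflux pump for conjugates, had 51 counts in K3R3, against 14 and 11 in WT (log2 1.82), and was not called.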
